A study of Mus musculus with 10 samples.

Results

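The MYC network is a family of transcription factors that share 1 way of binding DNA. Its members here are the genes Myc, Mycn, Mycl, Max, Mlx, Mnt, Mxd3, Mxd4 and Mga, chosen by name from the expression table of male mouse embryonic stem cells (mESCs), and they are 9 of its 25965 features. Of these, 8 carry their current name in the table and Mycl stands under its older name Mycl1, with the gene identifier of Mycl.

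RNA-seq was performed on male C57/Bl6 mESC lines kept in 2i medium, which holds mESCs in the naive state by blocking differentiation signals. Per the study, 2 lines were derived under its modified culture method, and each was divided at passage 0 (p0) and then grown for 10 or 20 further passages (p10, p20) under either method. Keniry2022 is the modified method (New or Off in the labels), with daily passaging of floating colonies. Mulas2019 is the reference method (Old or On in the labels), on gelatin, at lower density and with less frequent passaging, so that p20 Keniry2022 and p10 Mulas2019 cells had spent the same number of days in culture. The 5 groups (p0, p10 Keniry2022, p20 Keniry2022, p10 Mulas2019 and p20 Mulas2019) hold 2 libraries each, and no allele or drug separates them beyond the culture method. All cells share their derivation under Keniry2022 conditions, so p0 is a starting point and not a neutral reference. The 4 libraries of a method are repeated samplings of 2 lines, and p-values measure the spread between these libraries, not between independent derivations.

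MYC, MYCN and MYCL are activators that bind the E-box, the hexamer CACGTG, as dimers with MAX, and in most growing cells they raise the genes of ribosome assembly, nucleotide synthesis and the cell cycle. The MXD proteins and MNT compete for MAX and recruit the SIN3 corepressor to the same sites. MLX takes the place of MAX in a parallel branch with the glucose-sensing partners MLXIP and MLXIPL. MGA carries MAX into PRC1.6, a Polycomb complex that represses germline genes in mESCs. In mESCs, Mycn and Myc can stand in for each other in self-renewal, and inhibition of MEK, as in 2i medium, is known to keep Myc low.

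The E-box itself was sought in the promoters of the network, because it is the site that these factors bind and the members' own promoters can hold it. In the RefSeq promoter windows of the mouse genome (GRCm38.p6), from 250 bases before to 50 bases after a transcription start, 8 members had a window and 4 of these held CACGTG, which reads the same on both strands. Over all genes with such a window, 8.09% of 27025 held it. The windows below are 30 bases, 5′ to 3′ on the strand of the gene, with the E-box in capitals.
Max: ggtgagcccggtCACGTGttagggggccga
Mlx: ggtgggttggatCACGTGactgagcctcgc
Mnt: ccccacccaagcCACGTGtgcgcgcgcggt
Mxd4: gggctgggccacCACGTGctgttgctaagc
The Max window lies at chr12:76962234-76962263 on the minus strand, with a motif that begins 3 bases before the start site and runs across it. The Mlx window is at chr11:101087238-101087267 on the plus strand, with the motif beginning 40 bases before the start. The Mnt window is at chr11:74830789-74830818, plus strand, where the motif begins 123 bases before the start. The Mxd4 window is at chr5:34187912-34187941, minus strand, where it begins 219 bases before the start. Mycn, Mycl, Mxd3 and Mga had no CACGTG in their windows. Myc had no window in this set, so its promoter was not searched. The presence of the letters describes the sequence only, and binding was not measured in these libraries.

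Library totals ranged from 24053996 to 30236823 reads. The pluripotency markers Pou5f1, Nanog, Sox2, Zfp42, Esrrb, Klf4 and Tfcp2l1 were all expressed. Levels are in RPKM (reads per kilobase of exon, scaled to the library total). Their sum was 1360 to 1500 RPKM in Keniry2022, 1250 to 1280 RPKM in Mulas2019 and 1450 to 1630 RPKM in p0 libraries. By limma, Pou5f1 (log2 difference 0.40), Zfp42 (0.30) and Nanog (0.18) were called higher under Keniry2022 and Klf4 (-0.40) lower. The other 3 were not called, beside 51.5% of all features called. Of 12 markers of other cell types, 1 passed the filter on low values, the trophectoderm keratin Krt18, and their summed level was 4.46 to 5.33 RPKM in Keniry2022, 5.94 to 6.38 RPKM in Mulas2019 and 6.24 to 7.25 RPKM in p0 libraries. Krt18 itself was lower under Keniry2022 than under Mulas2019 (log2 difference -1.13, adjusted p = 0.000381), at -0.44 to 0.31 against 0.89 to 1.08, with 0.51 and 0.46 at p0, and its part in the differences between the methods was not tested. The p0 replicate 1 library stood apart. Its short transcripts were high and its long transcripts low against replicate 2, with a median log2 difference of 0.56 for features with exons of up to 1000 bases and -0.65 for those above 8000 bases, and results against p0 are therefore given with each p0 library. Reads of the Y-linked genes Ddx3y, Eif2s3y, Kdm5d and Uty were few (13 to 132) in 1 library of each group and many (4578 to 8140) in the other. Per the study, DNA-seq showed that 1 line had lost its Y chromosome during derivation, before the methods were compared. The few reads were in replicate 1 in every group except p20 Keniry2022, where the order was the opposite (6659 against 48 reads). The replicate numbers therefore do not follow 1 line through that group.

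Values are given as log2 RPKM, a level per length on which genes can be set beside each other. Differences are between log2 levels, Keniry2022 minus Mulas2019, and a gene was called when limma's adjusted p was below 0.05 after Benjamini-Hochberg adjustment over all features tested. Bulk RNA cannot tell fewer cells expressing a gene from less RNA per cell.

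Across all 10 libraries the network fell into 3 tiers of level. Mycn (mean 5.06), Max (5.02), Mga (4.66) and Mlx (4.32) were the most abundant. Mycl (3.43), Mnt (3.33) and Mxd3 (2.74) lay in the middle, and Mxd4 (0.27) and Myc (0.19) were lowest. Neighbours in this order were often inseparable, since Mycn and Max differed by less than the spread of Mycn over libraries (SD 0.219), as did Mycl and Mnt (SD 0.173 and 0.187). The order also differed between the methods. Under Keniry2022, Mycn led with 5.16 ± 0.0655 (SD, n = 4), followed by Max at 5.08 ± 0.0466, whereas under Mulas2019 Max led with 4.95 ± 0.029 and Mycn, at 4.85 ± 0.14, stood beside Mga at 4.89 ± 0.0212. At the bottom, Myc lay above Mxd4 in 3 of the 4 Keniry2022 libraries and below it in all 4 Mulas2019 libraries.

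**Figure D1:**
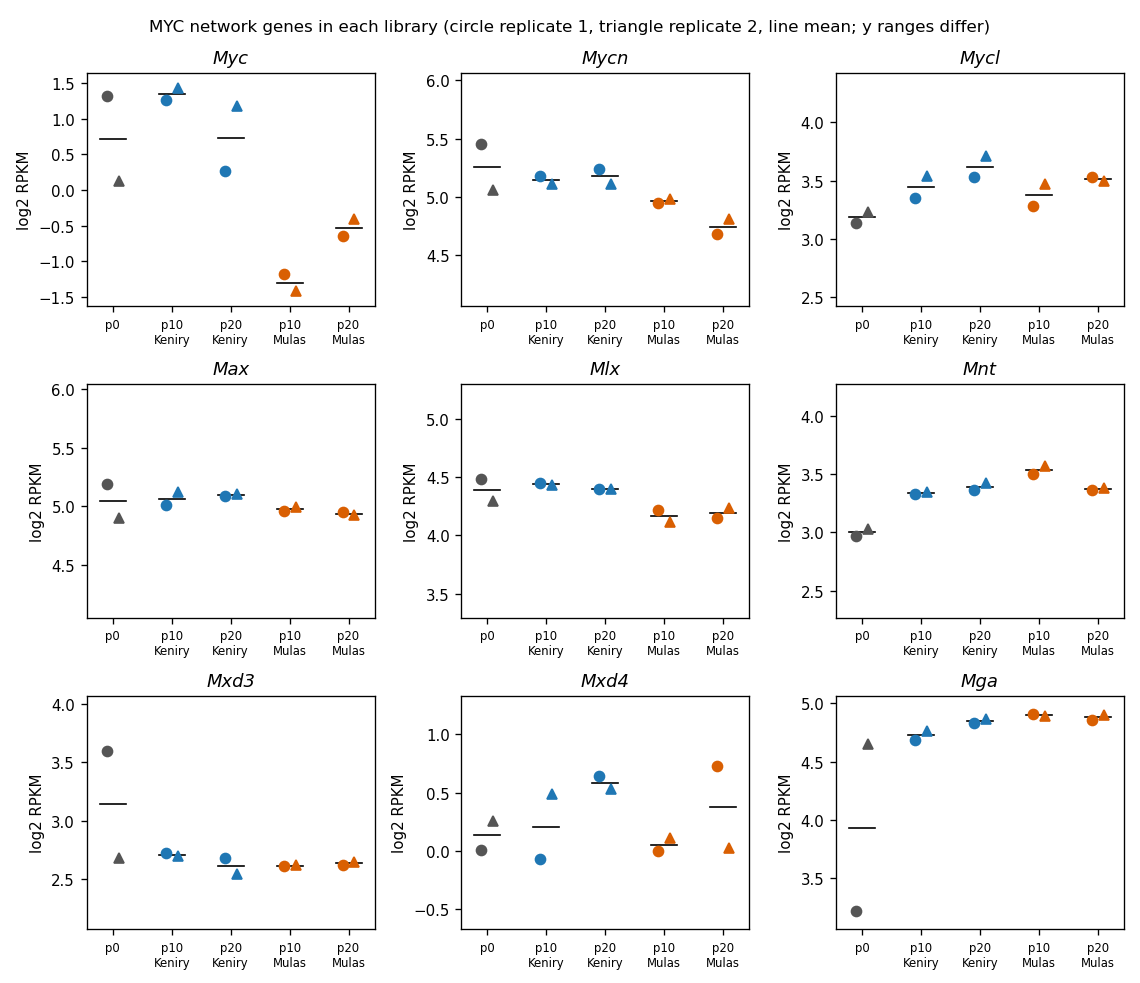
Level of the 9 MYC network genes in each library, as log2 RPKM on the y axis, by group on the x axis (circles replicate 1, triangles replicate 2, lines group means, y ranges differ between panels). Myc lies between 0.27 and 1.43 in the Keniry2022 libraries and between -1.41 and -0.41 in the Mulas2019 libraries, and p0 replicate 1 stands away from the other libraries for Mxd3 (3.60) and Mga (3.22).

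With p10 and p20 pooled, 4 of the 9 members were called between the methods, and all 4 were higher under Keniry2022: Myc, Mycn, Max and Mlx. Of all 11654 features tested, 51.5% were called, 25.9% in that direction, so the number of members called was close to the background. By size of difference among all features, Myc stood at percentile 100 (rounded), Mycn at 89.1, Mlx at 82.4 and Max at 68.6. Of these 4, only Myc lay outside the range from the 5th to the 95th percentile (-0.575 to 0.419). The median difference of the members was 0.12, beside -0.003 over all features. The libraries of the 2 methods did not overlap for the same 4 members, beside 46.5% of all features in either direction and 23.1% with Keniry2022 above.

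Myc differed most of the members. Its gene lies at chr15:61985391-61990374 on the plus strand (mm10), and its exons span 2717 bases. At p10, log2 RPKM was 1.26 and 1.43 under Keniry2022 and -1.18 and -1.41 under Mulas2019. At p20 it was 0.27 and 1.18 under Keniry2022 and -0.65 and -0.41 under Mulas2019. The lowest Keniry2022 library was above the highest Mulas2019 library, with a gap of 0.69 between the nearest 2, and the p0 libraries, at 1.31 and 0.12, were apart from each other by 1.19.

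These levels rested on few reads. The Keniry2022 libraries held 92 to 211 Myc reads and the Mulas2019 libraries 29 to 56. Counting error alone gave the lowest Keniry2022 library an exact Poisson 95% interval of 74.2 to 113 reads, and the highest Mulas2019 library one of 42.3 to 72.7, so these 2 intervals did not overlap. The pooled difference was 1.95 (SE 0.285, 95% interval 1.31 to 2.58, adjusted p = 0.000426), which is 3.85-fold. Myc passed the filter on low values through its Keniry2022 libraries only, with 4 of 4 above a log2 RPKM of 0 and none of the 4 Mulas2019 libraries. With no filter, the difference was also 1.95 (adjusted p = 0.00145).

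Mycn was the most abundant MYC gene in every library. It lies at chr12:12936096-12941914 on the minus strand, with 3292 bases of exons. Its level was 5.18 and 5.11 at p10 and 5.24 and 5.11 at p20 under Keniry2022, and 4.95 and 4.98 at p10 and 4.68 and 4.81 at p20 under Mulas2019, from 2334 to 3494 reads per library. The groups did not overlap, although only 0.13 separated the nearest libraries, and p0 was at 5.45 and 5.06. The pooled difference was 0.31 (SE 0.066, 95% interval 0.16 to 0.45, adjusted p = 0.00345), or 1.24-fold. In a model of all 10 libraries and 5 groups, in which the spread of p0 enters the error, the same difference had an adjusted p of 0.0505.

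Mycl did not pass the test. The gene is at chr4:122995652-123002485, plus strand, with 4038 bases of exons. Its levels under Keniry2022 were 3.35, 3.54, 3.53 and 3.71 (p10 replicates 1 and 2, then p20) and overlapped those under Mulas2019, which were 3.28, 3.47, 3.53 and 3.50. The p0 libraries, at 3.14 and 3.23, were the lowest of all 10. The pooled difference was 0.09 (95% interval -0.09 to 0.27, adjusted p = 0.373), which leaves room for a difference as large as that of Mlx.

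MAX is the partner through which the MYC proteins bind DNA, and the MXD proteins and MNT bind it too. Max lies at chr12:76937269-76962248 on the minus strand, and the table counts it over 2005 bases of exons. Its level had the smallest spread of the 9 over all libraries (SD 0.097), at 5.01, 5.12, 5.09 and 5.10 under Keniry2022 and 4.96, 4.99, 4.95 and 4.92 under Mulas2019, with 5.19 and 4.90 at p0. The methods were separated by only 0.02 between their nearest libraries. The pooled difference of 0.12 (SE 0.0359, 95% interval 0.04 to 0.20, adjusted p = 0.0156), 1.09-fold, was the smallest of the called members, and the call depended on the processing. It was lost with quantile normalisation (difference 0.03, adjusted p = 0.452), with a correction for exon length (0.07, adjusted p = 0.189), in the model of 5 groups (0.12, adjusted p = 0.267) and without p10 Keniry2022 replicate 2 (0.11, adjusted p = 0.0506).

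Mlx, the MAX-like factor of the glucose-sensing branch, was lower under Mulas2019 in every library. It lies at chr11:101087277-101092207 on the plus strand, with 1999 bases of exons, of which 385 (19.3%) are shared on the other strand with Psmc3ip, and the strand setting of the counting is not given in the sources used here, so reads of the pair may be mixed. Levels were 4.45, 4.43, 4.40 and 4.40 under Keniry2022 and 4.22, 4.11, 4.15 and 4.23 under Mulas2019, with 4.48 and 4.29 at p0. The gap between the methods was 0.16, wider than the range within Keniry2022. The pooled difference was 0.24 (SE 0.0399, 95% interval 0.15 to 0.33, adjusted p = 0.00091), 1.18-fold, and the gene was called in all 29 alternative analyses, at 0.18 to 0.26.

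**Figure D2:**
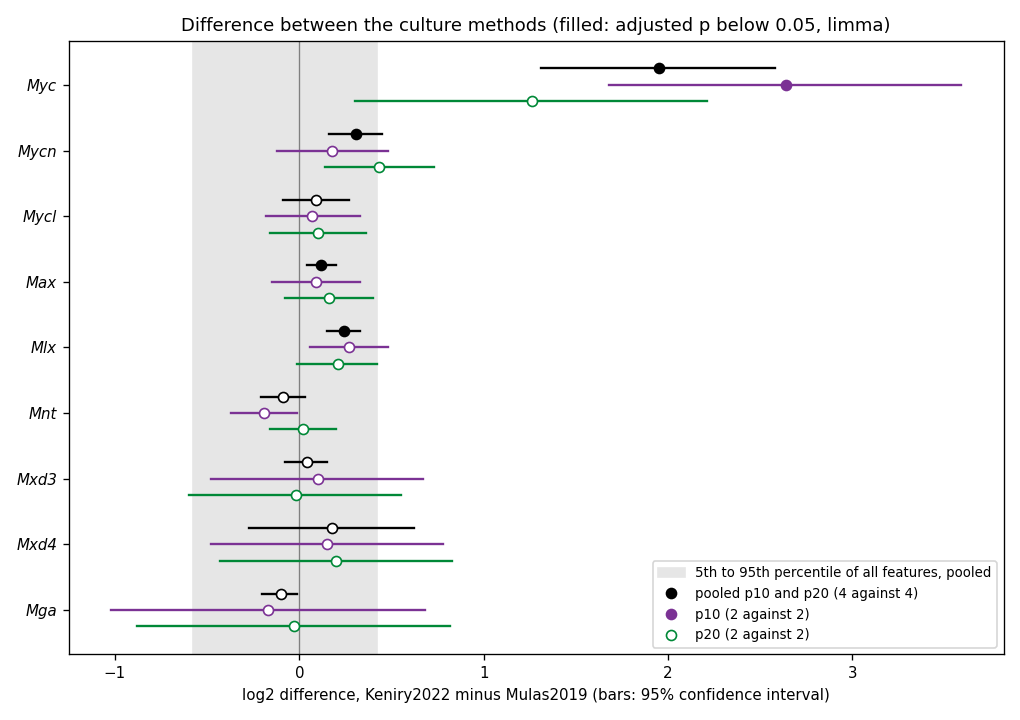
Log2 difference between the methods (x axis, Keniry2022 minus Mulas2019) for each member (y axis), with p10 and p20 pooled (black), at p10 (purple) and at p20 (green). Bars are 95% confidence intervals, filled points were called by limma, and the grey band holds the central range of all features from the 5th to the 95th percentile. The 3 Myc estimates, 1.95, 2.64 and 1.26, lie right of the band, and the pooled estimates of the other 8 members lie between -0.10 and 0.31.

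The partners of MLX were lower under Keniry2022. MLXIPL (also known as ChREBP) and MLXIP (MondoA) bind DNA with MLX and switch on glucose-responsive genes. Mlxipl was the lower of the pair in level, with log2 RPKM of -0.30 to 0.04 in Keniry2022, 0.88 to 1.37 in Mulas2019 and -0.47 and -0.34 in p0 libraries. Its difference was -1.23 (SE 0.133, adjusted p = 0.000101). It passed the filter mainly through Mulas2019, with 4 of 4 of those libraries above 0 and 1 of 4 under Keniry2022, and with no filter the difference was again -1.23 (adjusted p = 0.000347). Mlxip had 1.46 to 1.61 in Keniry2022 and 1.88 to 1.95 in Mulas2019 libraries and differed by -0.35 (SE 0.0614, adjusted p = 0.00117). The groups did not overlap for either gene.

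Txnip and Arrdc4, the best known targets of MLXIP and MLX, were read next. Txnip, an inhibitor of thioredoxin and of glucose uptake, had 4.90 to 5.21 under Keniry2022, 5.28 to 5.76 under Mulas2019 and 4.75 and 5.22 at p0, so that Mulas2019 lay above the p0 libraries (Keniry2022 minus Mulas2019 -0.44, SE 0.0982, adjusted p = 0.00409). Arrdc4 was at 2.76 to 2.94 and 2.92 to 3.05 and was not called (-0.12, adjusted p = 0.0827). The median of the 2 was -0.28, beside 0.00 over all features. Mlx itself and its 2 partners were thus called in opposite directions.

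Of the other factors of the MAX and MLX network, USF1, USF2 and TCFL5 bind E-boxes, and MXD1 and MXI1 are repressors of the MXD family. All 6 that passed the filter, Mlxip and Mlxipl included, gave 2 higher, 3 lower and 1 not called. Usf1 (0.16, adjusted p = 0.0226) and Tcfl5 (0.21, adjusted p = 0.0278) were higher under Keniry2022, Usf2 was lower (-0.17, adjusted p = 0.00861), and Mxi1 had a difference of 0.00. Mxd1, with 85 to 149 reads, was below the filter. In the model of 5 groups, none was higher and 1 was lower, while 2225 of all features were called, in place of 6000 in the main fit.

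None of the 3 antagonists Mnt, Mxd3 and Mxd4 was called between the methods. MNT is the widely expressed repressor that opposes MYC in growing cells. Mnt (chr11:74830920-74845725, plus strand, 4627 bases of exons) had 3.33, 3.35, 3.36 and 3.42 under Keniry2022 and 3.50, 3.57, 3.36 and 3.38 under Mulas2019. The pooled difference was -0.09 (95% interval -0.21 to 0.03, adjusted p = 0.195). Its p0 libraries, at 2.97 and 3.03, lay close together and below all 8 others.

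MXD3 is the MXD protein that is made in dividing cells. Mxd3 (chr13:55325168-55329758, minus strand, 2081 bases of exons) was flat, with 2.72, 2.70, 2.68 and 2.54 under Keniry2022 and 2.61, 2.62, 2.62 and 2.65 under Mulas2019. The difference was 0.04 (95% interval -0.08 to 0.15, adjusted p = 0.596), and its sign turned with a correction for exon length (-0.02, adjusted p = 0.802). The p0 libraries were at 3.60 and 2.68, so replicate 1 was above the 9 other libraries. The gene identifier listed beside Mxd3 in the table is that of Prelid1, whose exons share 105 bases with Mxd3 on the other strand, and the name was taken as the identity.

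MXD4 is linked to cells that leave the cycle. Mxd4 (chr5:34173887-34187720, minus strand, 3882 bases of exons) had low levels that varied as much within as between methods, with -0.07, 0.49, 0.64 and 0.53 under Keniry2022, 0.00, 0.11, 0.73 and 0.03 under Mulas2019 and 0.01 and 0.26 at p0. It had 94 to 178 reads per library. The difference was 0.18 (SE 0.201, 95% interval -0.27 to 0.62, adjusted p = 0.479), an interval that includes both no change and 1 larger than that of Mycn. An antisense gene, Gm42846, overlaps 514 bases of its annotated exons.

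Mga has the longest transcript of the network, with 15340 bases of exons at chr2:119897228-119969581 on the plus strand. Levels were 4.69, 4.76, 4.83 and 4.87 under Keniry2022 and 4.91, 4.89, 4.86 and 4.90 under Mulas2019, so the groups met at their edges. The difference was -0.10 (SE 0.0425, 95% interval -0.20 to -0.01) and was not called (adjusted p = 0.0684). Its direction turned with the processing, because the correction for exon length gave 0.11 (adjusted p = 0.0233), whereas quantile normalisation gave -0.19 (adjusted p = 0.00601). Long transcripts as a whole were lower under Keniry2022, with a median difference of -0.15 above 8000 bases and 0.13 up to 1000 bases, and the part of length in the value of Mga was not tested beyond that correction. At p0, Mga was 3.22 in replicate 1 and 4.65 in replicate 2, a difference of 1.42, larger than that of 98.1% of the features tested.

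The balance inside the network was described on the linear RPKM scale, with no test. Mycn made up 72.2% ± 2.72 (SD, n = 4) of the summed RPKM of Myc, Mycn and Mycl under Keniry2022 and 71.6% ± 3.43 under Mulas2019, so its share was alike. Mycl made up 23.4% ± 2.24 and 27.0% ± 3.04. Myc made up 4.33% ± 1.36 and 1.38% ± 0.479, and its range of 2.39% to 5.52% under Keniry2022 did not meet that of 0.878% to 1.88% under Mulas2019. The 3.85-fold difference of Myc concerned a small part of the MYC transcripts, and the sum of the 3 genes was 48.8 to 50.6 RPKM under Keniry2022, 37.8 to 43.0 RPKM under Mulas2019 and 54.8 and 44.0 RPKM at p0.

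The sum was also set against the partners within each library, a ratio in which a single scaling factor per library cancels, whereas quantile normalisation, which moves genes unequally, does not. Relative to Max, the MYC sum had a log2 ratio of 0.49 to 0.61 under Keniry2022 and 0.29 to 0.44 under Mulas2019. Relative to the sum of Mnt, Mxd3, Mxd4 and Mga it was 0.08 to 0.17 under Keniry2022 and -0.32 to -0.18 under Mulas2019, so that MYC transcripts exceeded those of the 4 others in all 4 Keniry2022 libraries and fell short of them in all 4 Mulas2019 libraries. At p10 and p20, most of that second sum was Mga, whose level moves with exon length as given above. Mxi1, an MXD-family repressor that is not a member here, was left out of that sum. Its log2 RPKM was 3.29 to 3.39 under Keniry2022 and 3.26 to 3.36 under Mulas2019. The sign of this ratio therefore depends on which repressors are summed. At p0 this ratio was 0.86 in replicate 1, where Mga was low, and 0.11 in replicate 2. The log2 ratio of Mycn to Myc was 3.68 to 4.97 under Keniry2022 and 5.22 to 6.39 under Mulas2019.

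**Figure D3:**
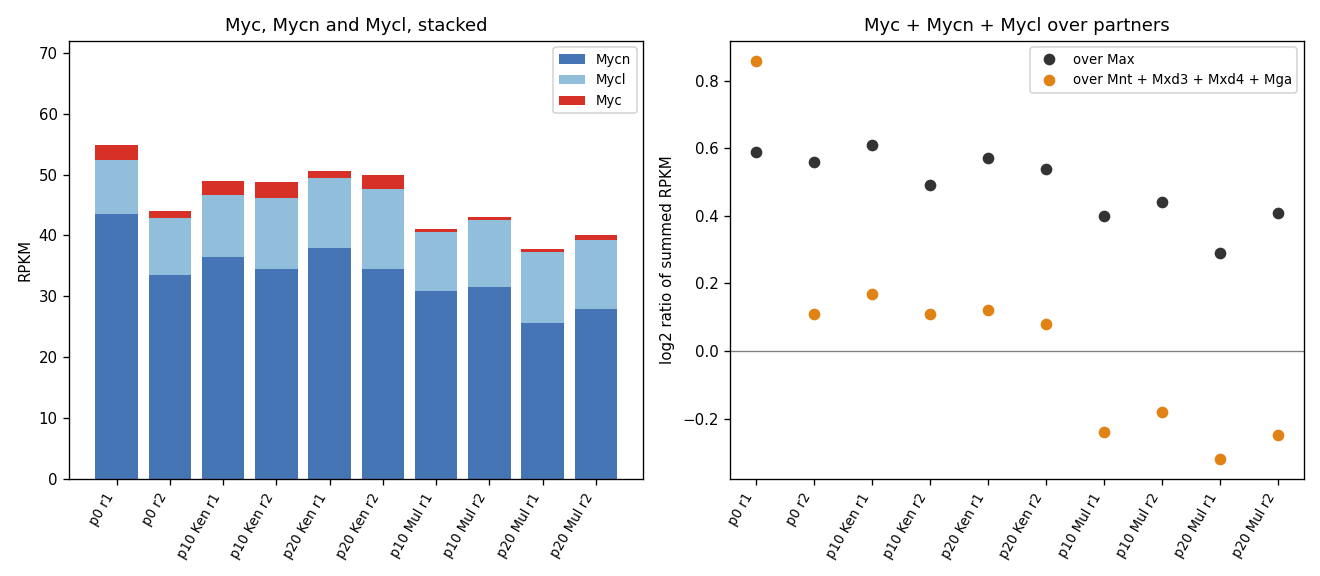
Left, RPKM of Mycn, Mycl and Myc stacked for each of the 10 libraries. Right, log2 ratio of their summed RPKM to that of Max (dark) and to that of Mnt, Mxd3, Mxd4 and Mga together (orange) for the same libraries. Myc is the thin top layer, 0.878% to 5.52% of the sum at p10 and p20, and the orange points are above 0 in the 4 Keniry2022 libraries and below 0 in the 4 Mulas2019 libraries.

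The methods were then compared at single passages, in the model of all 10 libraries. At p10, Myc was the 1 member of 9 that was called, beside 8.53% of all features, with a difference of 2.64 (SE 0.412, adjusted p = 0.0132), or 6.22-fold. Leaving out any 1 of the 4 p10 libraries kept the difference at 2.53 to 2.75 and took the adjusted p to between 0.0788 and 0.123. At p20 none of the 9 was called by limma, beside 2.15% of all features, and 2 had an unadjusted p below 0.05, Myc (1.26, adjusted p = 0.153) and Mycn (0.43, adjusted p = 0.123). With weights for library quality, 4 members were called at each passage, beside 50.9% of all features at p10 and 35.3% at p20. Without p0 replicate 1, 5 members were called at p10 and 4 at p20, beside 47.9% and 36.2% of features, and without p0 replicate 2 also 5 and 4, beside 48.1% and 36.3%. All these counts were near their background.

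The Myc difference was smaller at p20 than at p10, by 1.38 on the log2 scale. The test of this change, the interaction of method and passage, called none of the 9 members and 0% of all features (adjusted p = 1 for Myc). It gave 405 features and 1 member, Myc, at an unadjusted p below 0.05. Within each method the passages were not told apart either. Between p10 and p20 no member and no feature was called by limma under Keniry2022 (0%, with 289 features and 0 members at an unadjusted p below 0.05) or under Mulas2019 (0%, with 772 features and 0 members).

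When cells were matched for days in culture, p20 Keniry2022 against p10 Mulas2019, Myc was again the 1 member of 9 called, beside 6.43% of all features, with a difference of 2.02 (SE 0.412, adjusted p = 0.0338). This call was lost in 12 of 19 alternatives, with adjusted p up to 0.211. Among them were quantile normalisation (2.30, adjusted p = 0.053), a pseudocount of 1 (0.93, adjusted p = 0.0632), voom on recovered reads (2.01, adjusted p = 0.0526), the replicate number as a block (2.02, adjusted p = 0.0542) and each fit without 1 of the libraries at p10 or p20. With the block and the 2 numbers of p20 Keniry2022 exchanged, it was kept (adjusted p = 0.036). Without either p0 replicate 1 or p0 replicate 2, 3 members were called, beside 43.1% of all features in both fits. These comparisons share libraries with each other, so they are not separate evidence.

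Each group was also compared with p0, and these 4 comparisons share the 2 p0 libraries. Under Keniry2022 no member was called by limma at p10 or at p20, beside 0.199% of all features in both, with 2 and 3 members at an unadjusted p below 0.05. Under Mulas2019, 2 of the 9 were called at p10, beside 33% of all features. Myc fell by 2.01 (adjusted p = 0.0165) and Mnt rose by 0.53 (adjusted p = 0.00881). At p20, 2 were called, beside 29.3% of all features. Mycn fell by 0.51 (adjusted p = 0.0284) and Mnt rose by 0.37 (adjusted p = 0.0198). At both passages the share of members called, 22.2%, was below the background. With weights for library quality, no member was called at either passage, beside 0% of all features. The Mycn call at p20 was lost in 9 of 20 alternatives (highest adjusted p = 0.216), and those of Mnt and of Myc in 3 each, the library weights among them.

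The choice of p0 library moved these values. Against p0 replicate 1 alone (without p0 replicate 2), Myc at p10 Mulas2019 fell by 2.60 (adjusted p = 0.000137), and against replicate 2 alone by 1.42 (adjusted p = 0.0125). Mycn at p20 Mulas2019 fell by 0.70 (adjusted p = 5.25e-05) and 0.32 (adjusted p = 0.013). Mnt hardly moved, with 0.56 (adjusted p = 7.19e-05) and 0.50 (adjusted p = 0.00121) at p10. Against replicate 2 alone, 1 of 9 members, Mnt, was called at each passage under Keniry2022, beside 5.23% of all features at p10 and 4.61% at p20. Against replicate 1 alone, the library with the deviating length profile, most features were called. Under Mulas2019 it gave 7 of 9 members at p10, beside 71.8% of features, and 8 of 9 at p20, beside 71.1%, and under Keniry2022 5 of 9 at each passage, beside 64.3% and 66.5%. A lone p0 library is assumed there to vary like the other groups.

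The genes known to respond to MYC, with MYC cofactors and the genes of MGA's complex, were read as lists in the pooled comparison. The share called over all features, 51.5% (25.9% higher under Keniry2022), is the background for each list, and higher and lower refer to Keniry2022 relative to Mulas2019, not to p0. Genes in these lists are not independent of each other, and the lists were chosen with earlier results of these data known. Of 30 established MYC targets, 29 passed the filter, and 21 were higher under Keniry2022, 6 were lower and 2 did not pass the test, with a median difference of 0.21 beside 0.00 over all features. The higher genes with the smallest p were Nme1 (0.47, SE 0.0366, adjusted p = 3.56e-05), a nucleotide kinase, Odc1 (0.37, SE 0.0336, adjusted p = 4.73e-05), the first enzyme of polyamine synthesis, and Hspe1 (0.37, SE 0.0399, adjusted p = 9.56e-05), the mitochondrial co-chaperonin. Nme1 was 5.59 to 5.69 under Keniry2022 and 5.15 to 5.24 under Mulas2019, with 6.28 and 5.49 at p0. Odc1 was 6.87 to 6.96 and 6.50 to 6.57, with 6.47 and 6.59 at p0.

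Of the 6 targets that were lower under Keniry2022, Shmt2, which feeds one-carbon units from serine, had 6.68 to 6.87 under Keniry2022 and 7.20 to 7.51 under Mulas2019, with 7.08 and 6.69 at p0 (-0.62, SE 0.0665, adjusted p = 0.000101). Hk2, which traps glucose in the cell, differed by -0.38 (adjusted p = 0.00205), and Cad, the entry enzyme of pyrimidine synthesis, by -0.18 (adjusted p = 0.00536). Ldha, the lactate dehydrogenase subunit, the telomerase gene Tert and the nucleolar gene Nop56 were the other 3, at -0.47, -0.28 and -0.11. The list's median depended on scaling. With quantile normalisation it was 0.06, with 12 higher and 6 lower (5361 of all features called, in place of 6000 in the main fit). With the correction for exon length it was 0.20, with 21 higher and 4 lower (5463 of all features called). In the model of 5 groups 9 were higher and 2 lower (2225 of all features called). At p10 the median was 0.19 with 1 higher and 2 lower, beside 8.53% of all features called. At p20 it was 0.20 with none called, beside 2.15%.

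Among 14 genes listed for coactivator complexes of MYC, 4 were higher under Keniry2022, 3 were lower and 7 were not called (median -0.04), a share near the background. The list included Pafah1b1, which is not part of such a complex and was not called (0.09, adjusted p = 0.112). Actl6a (0.41, adjusted p = 0.000108), a subunit of chromatin remodellers, Wdr5 (0.31, adjusted p = 0.000393), which anchors MYC to chromatin, and the ATPase Ruvbl1 (0.33, adjusted p = 0.00121) were higher. The very large scaffold Trrap and the remodeller Ep400 were both lower, at -0.27 (adjusted p = 0.00401 and 0.0056), as was Smarcb1, a SWI/SNF subunit, at -0.14 (adjusted p = 0.0167). With the correction for exon length, 5 were higher and none lower.

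Of 16 genes listed for the turnover or phosphorylation of MYC proteins, 4 were higher under Keniry2022, 4 lower and 8 not called (median -0.01), again near the background. The list included 2310039H08Rik, for which the sources used here give no role in MYC turnover. It was not called (0.16, adjusted p = 0.232). Skp2 (0.41, adjusted p = 0.000115), a ubiquitin ligase subunit that acts on MYC, and the cullin Cul1 (0.25, adjusted p = 0.000795) were higher. The deubiquitinase Usp36 (-0.24, adjusted p = 0.00181), the ubiquitin ligase Huwe1 (-0.21, adjusted p = 0.0061) and the kinase Gsk3b (-0.20, adjusted p = 0.0102), which marks MYC for destruction and is the target of a 2i inhibitor, were lower. With the correction for exon length, 3 were higher and 1 lower. RNA levels do not give MYC protein, which was not measured.

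The SIN3 and NCOR corepressors, through which MNT and the MXD proteins act, had 6 genes higher under Keniry2022, 2 lower and 7 not called among 15 (median 0.07, and -0.02 with quantile normalisation), near the background. The histone deacetylase Hdac2 was higher under Keniry2022 (0.42, adjusted p = 4.73e-05), with no Keniry2022 library below 5.91 and no Mulas2019 library above 5.59, but both p0 libraries, at 6.59 and 6.34, were above all of these. Also higher were the histone chaperones Rbbp4 (0.29, adjusted p = 0.000299) and Rbbp7 (0.21, adjusted p = 0.0011). Arid4b and Sap130 were lower, at -0.23 and -0.17 (adjusted p = 0.00437 and 0.0146).

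The partners of MGA in PRC1.6 had 5 genes higher, 2 lower and 4 not called among 11 (median 0.09, and 0.00 with quantile normalisation). Rnf2 (0.27, adjusted p = 0.000178), the ubiquitin ligase of the complex, L3mbtl2 (0.31, adjusted p = 0.000248), a reader of the complex, and Wdr5 (0.31, also counted above) were higher. Rybp (-0.18, adjusted p = 0.00746) and its paralogue Yaf2 (-0.25, adjusted p = 0.0367) were lower.

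The germline genes listed as repressed through MGA, MAX and PRC1.6 differed in both directions. They were not all silent in these cells. Levels ran from genes below the filter up to Dazl, at 7.13 to 7.51 under Keniry2022 and 6.75 to 7.03 under Mulas2019. Of 20 genes, 17 passed the filter, with 3 higher, 3 lower and 11 not called (median 0.21). Stra8, the gatekeeper of meiosis, was lower under Keniry2022, at 4.97 to 5.43 against 6.55 to 7.18 under Mulas2019 and 5.30 and 5.10 at p0 (-1.59, SE 0.131, adjusted p = 3.82e-05). The meiotic cohesin Stag3 (-0.57, adjusted p = 0.000944) and the synaptonemal complex gene Sycp3 (-0.27, adjusted p = 0.0293) were also lower. Stk31 (0.58, adjusted p = 0.000119), the RNA-binding gene Dazl (0.50, adjusted p = 0.000872) and Slc25a31 (0.65, adjusted p = 0.00303), the ADP/ATP carrier of germ cells, were higher. At p10, 2 of the list were higher and 1 was lower, beside 8.53% of all features called. At p20, none was higher and 2 were lower, beside 2.15%. In the day-matched comparison, 2 were higher and 2 lower, beside 6.43%.

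**Figure D4:**
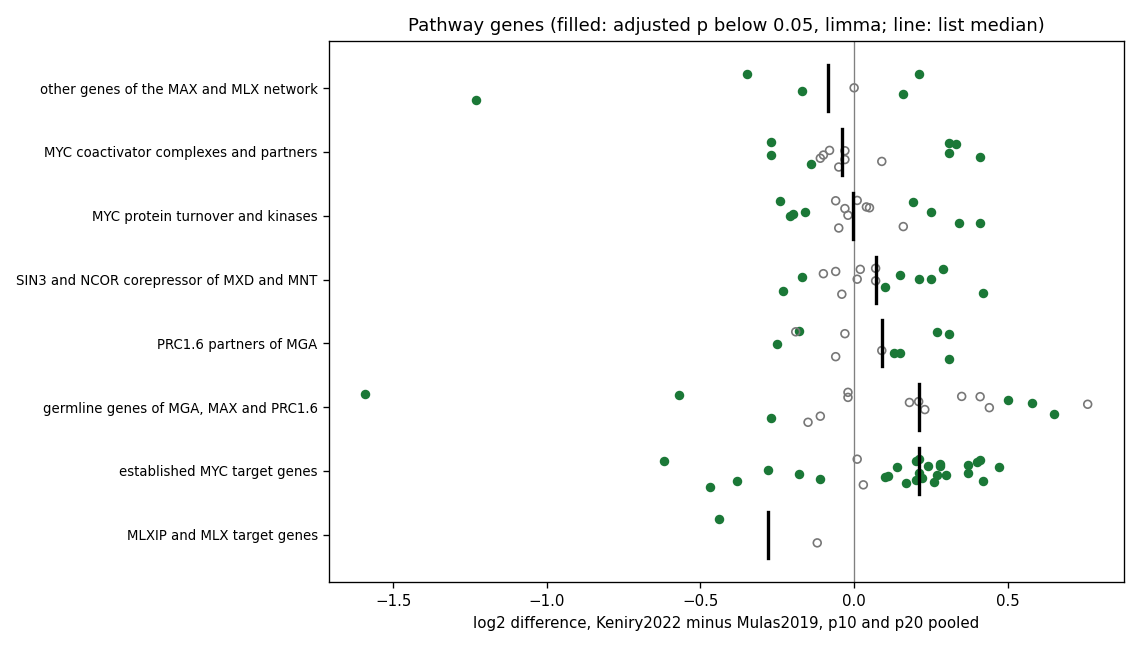
Log2 difference between the methods with p10 and p20 pooled (x axis, Keniry2022 minus Mulas2019) for each tested gene of 8 lists (y axis). Filled points were called by limma, open points were not, and black lines are list medians. The established MYC targets lie mostly right of 0 (21 higher, 6 lower), and Stra8 (-1.59) and Mlxipl (-1.23) lie farthest left.

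Genes whose profile over the 10 libraries was most like that of the MYC genes were found among 6198 features (6199 for Myc) with a mean log2 RPKM of at least 3, by Pearson's r. These are descriptions over libraries that share lines and groups. For Myc they were the mitochondrial carriers Slc25a11 (r = 0.981) and Slc25a20 (r = 0.970) and the pluripotency-associated gene Dppa2 (r = 0.969). Their differences between the methods were 0.23, 0.27 and 0.42, much smaller than that of Myc. For Mycn they were Zmynd19 (r = 0.973), Shf (r = 0.971) and the peroxiredoxin Prdx2 (r = 0.968), and for Mycl the nucleolar gene Nol9 (r = 0.954), Gclc (r = 0.919), a subunit of the enzyme that starts glutathione synthesis, and Sh3d19 (r = 0.918). No gene was among the first 3 for more than 1 of the MYC genes.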

How the data were processed

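RNA-seq libraries of male mESCs were single-end (75 bases) and, per the study, trimmed, aligned to mm10 with HISAT2 and quantified per gene in SeqMonk. TopHat2 2.0.12 appears in the submitters' processing notes, so the aligner is not settled here. The deposited values are log2 values that the authors' table calls log CPM, but features with 0 reads sit at floors set by exon length, so they are log2 RPKM, with 0 reads entered as 0.9 reads. Library totals, exon lengths and whole reads were worked out from these floors. Of 25965 features, 10303 gave their length directly, 15658 by a search for whole reads (other lengths were possible for 602) and 4 gave none. No column of values was left unused. For annotation release, strand and multiply aligned reads, the settings are not given in the sources used. Members were placed with GENCODE vM21 (mm10).

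Tests used limma 3.58.1 in R 4.3.3 (moderated, two-sided, intensity trend, Benjamini-Hochberg over all features, 0.05) on features with log2 RPKM above 0 in at least 50% of the libraries fitted, after tests on simulated data. No pseudocount was added. The authors used voom on counts, which the log2 values replace. The methods were compared over 8 libraries (4 against 4), and other comparisons used 1 model of 10 libraries and 5 groups. Alternatives changed scaling, filter, pseudocount, trend, weights, model, block, length correction and libraries. Intervals on reads cover counting error only. Members, lists and tests were chosen with earlier results of these data known. All 9 members are named, other comparisons name called members, and lists name up to 3 called genes per direction by smallest p (1 such gene is not reported here). The remaining called MYC targets that fell, Arrdc4 and Mxi1 were named after their values were seen.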

Additional observations from a re-analysis of the deposited data

Results flagged for a closer look

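For Mxd4, p20 Mulas2019 replicate 1 (log2 RPKM 0.73, from 178 reads) stood away from the other 3 Mulas2019 libraries (0.00, 0.11 and 0.03, from 94 to 127 reads). Its gap to the nearest of them was 0.842 of the range of the 4, above the 95% critical value of Dixon's test for 4 values. It was the only library so far out among 18 sets of 4 libraries for the members and 10 sets for their shares and ratios, and chance alone gives about 1 in 20.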

How the results depend on the processing

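In the pooled comparison, Myc kept its call in all 24 alternatives that could test it (1.0 to 2.35), Mlx in 29 of 29, Mycn in 28 of 29 and Max in 24 of 29. Under the filter above 2, and when 1 Keniry2022 library was left out and the filter applied again, Myc was not tested. Leaving out 1 library gave 2 to 5 called members. Without p10 Keniry2022 replicate 2 there were 2, beside 5049 features called in place of 6000. There were 3 with the features of the full fit kept, an alternative chosen after seeing the data. The model of 5 groups gave 2 members and 2225 features in place of 6000. The sign reversed with the length correction for Mxd3 (-0.02) and Mga (0.11). At p10, the filter above 2 gave 0 members, beside 7.19% of features, but Myc was not tested there. Quality weights gave 4 at p10 and 4 at p20, beside 50.9% and 35.3% of features. For p20 Keniry2022 against p10 Mulas2019, quantile normalisation, a pseudocount of 1, voom on recovered reads and the replicate block gave 0. The shares of all features called there were 6.66%, 6.8%, 6.88% and 4.42%. The weights gave 3, beside 40% of features, and the filter above 2 gave 0, beside 4.17%, with Myc not tested. Against p0, p10 Mulas2019 had 1 with the filter above 2, beside 35.2% of features, with Myc not tested. With the weights, p10 and p20 Mulas2019 each had 0, beside 0% of all features. The causes were not tested. Leaving out 1 library gave 0 to 5 members at p10, 0 to 4 at p20, 0 to 3 in the day-matched comparison, 0 to 5 for Keniry2022 p10 and p20 against p0, and 0 to 7 and 0 to 8 for Mulas2019 p10 and p20 against p0. As labelled, replicate numbers did not pair the libraries, because deviations of same-numbered libraries correlated at -0.698 to -0.118 in pairs of groups with p20 Keniry2022 and at 0.171 to 0.63 in the others. With the 2 numbers of that group exchanged, which follows the order of its Y-linked reads, every pair was positive, at 0.118 to 0.698. With the replicate block the pooled comparison called 4 members and 5749 features, and with p20 Keniry2022 numbers exchanged 4 and 5780. For p20 Mulas2019 against p0, the block gave 3 members, Mycn, Mnt and Mycl, beside 27.1% of all features. With numbers exchanged it gave Myc, Mycn and Mnt, beside 25.9%. In the day-matched comparison the block gave 0 (1 with numbers exchanged, beside 4.84% of all features), and elsewhere the reported number of members. Mxd4 and Myc, with 29 to 211 reads, are limited by depth.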
